A study of Rattus norvegicus with 4 samples.

Results

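The genes described here are receptors that turn gastric acid secretion up or down: the gastrin and cholecystokinin receptors Cckbr and Cckar, the histamine receptor Hrh2, the muscarinic receptor Chrm3, the prostaglandin receptor Ptger3 and the somatostatin receptors Sstr1, Sstr2, Sstr3 and Sstr5. They were taken by gene symbol from the platform annotation, with no condition on signal. Of the 9 genes, 8 had a probe set, a group of short oligonucleotides that together report 1 transcript, and these 8 genes had 14 of the 15866 probe sets on the chip. No probe set carried the symbol Cckar in the annotation used here, so Cckar was not analysed here.

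Acid is made by parietal cells of the oxyntic gland, the gland of the gastric corpus. Gastrin binds Cckbr on the enterochromaffin-like (ECL) cell, which releases histamine onto the Hrh2 of the parietal cell, while acetylcholine from enteric nerves reaches the parietal cell through Chrm3. Somatostatin and prostaglandin E2 restrain the same cells through receptors that couple to the inhibitory G protein, and octreotide, a stable somatostatin analogue, binds Sstr2 most tightly.

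The treated group comprised female Sprague-Dawley rats of 8 weeks given octreotide LAR, a slow-release depot form, at 5 mg per animal and sampled at 21 days. The control group comprised rats, also of 8 weeks, given the LAR vehicle in the matching volume and likewise sampled at 21 days. All animals were fasted overnight and anaesthetised, and the mucosa of the corpus was scraped off, so the samples hold every cell type that the scraping took. RNA of 2 treated animals was pooled for each of 3 chips, called pools 1 to 3, and RNA of 8 vehicle animals was pooled for a single chip. Groups were read from the titles, although the vehicle sample names octreotide LAR in its source name.

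The deposited values are linear signals, with a median of 223.7 to 233.4 on the treated chips and 225.9 on the vehicle chip. The labelled tissue was checked against its markers: Atp4a, the catalytic subunit of the gastric proton pump, had a signal of 23835 to 28932 on the treated chips and 26693 on the vehicle chip. Summed markers of several cell types lay to one side of the vehicle pool. All 12 probe sets of 11 squamous forestomach genes were above the vehicle chip on every treated chip, with a summed signal of 6486 to 10303 in treated pools against 2109 in the vehicle pool. All 5 probe sets of 4 ECL cell markers (Hdc, Slc18a2, Chga and Chgb) were below it on every treated chip, with a summed signal of 7288 to 7903 in treated pools against 15457 in the vehicle pool. The 5 chief cell markers summed to 104442 to 118788 in treated pools against 133445 in the vehicle pool. They did not move as a group. Cym had 3952, 8204 and 7561 in pools 1, 2 and 3, against 19071 in the vehicle pool. Chia and Cblif were also below the vehicle pool on every treated chip, whereas for Pgc and Pga5 the vehicle value lay inside the treated range. The 3 surface mucous markers summed to 114548 to 120734 in treated pools against 105766 in the vehicle pool, and the 5 immune probe sets to 2545 to 3214 against 2400. Most of the immune sum is Cd74, with 2412.1, 2253.5 and 2906.0 in pools 1, 2 and 3, against 2123.8 in the vehicle pool. Cd68 went the other way, with 126.2, 38.1 and 137.1 in the treated pools, against 158.5 in the vehicle pool. The 6 smooth muscle markers summed to 48163 to 63815 in treated pools, on both sides of the 55590 of the vehicle pool, as did the parietal markers, with 61844 to 73431 against 69522. Atp4a and Atp4b make up most of the parietal sum, and for both the vehicle value lay inside the treated range. The other parietal marker, Kcnq1, was below the vehicle pool on every treated chip, with 2037, 1460 and 2304 against 2855. The part of these cell types in the receptor values was not tested.

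Octreotide LAR was set against vehicle to ask whether transcripts of the receptors that the drug and the acid-controlling signals act on differed after 21 days of treatment. None of the 14 receptor probe sets passed. Differences of the treated mean from the vehicle chip ran from -0.48 to 0.64 on the log2(signal + 16) scale, with 6 probe sets higher and 8 lower and a median of -0.08, against a median of -0.01 over all probe sets. The limma test across all 15866 probe sets, in which the lone vehicle chip is assumed to vary like the treated chips, gave the receptors adjusted p-values of 0.9996 to 0.9997. That assumption could not be checked with a single vehicle chip, which holds RNA of 8 animals where each treated chip holds RNA of 2. The test called 0 of 15866 probe sets (0%), and 776 (4.89%) had an unadjusted p under 0.05, none of them a receptor's. When probe sets under the 40th percentile of the mean log2 signal were left out, 10 of 9520 (0.105%) were called, and none of the 6 receptor probe sets at or above that level, a signal of 144.7, was among them. On the log2(signal + 16) scale, which compresses dim signals, no receptor probe set had a 2-fold difference in the mean, which 3.62% of all probe sets had upward and 3.06% downward. On the plain signal scale the dim Hrh2 probe set averaged 27.4 on the treated chips, against 10.5 on the vehicle chip. The treated pools all lay above the vehicle chip for 1 of the 14 receptor probe sets, against 24.4% of all probe sets, and all below it for 3, against 24.0%. Neither count is above its background share.

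**Figure D1:**
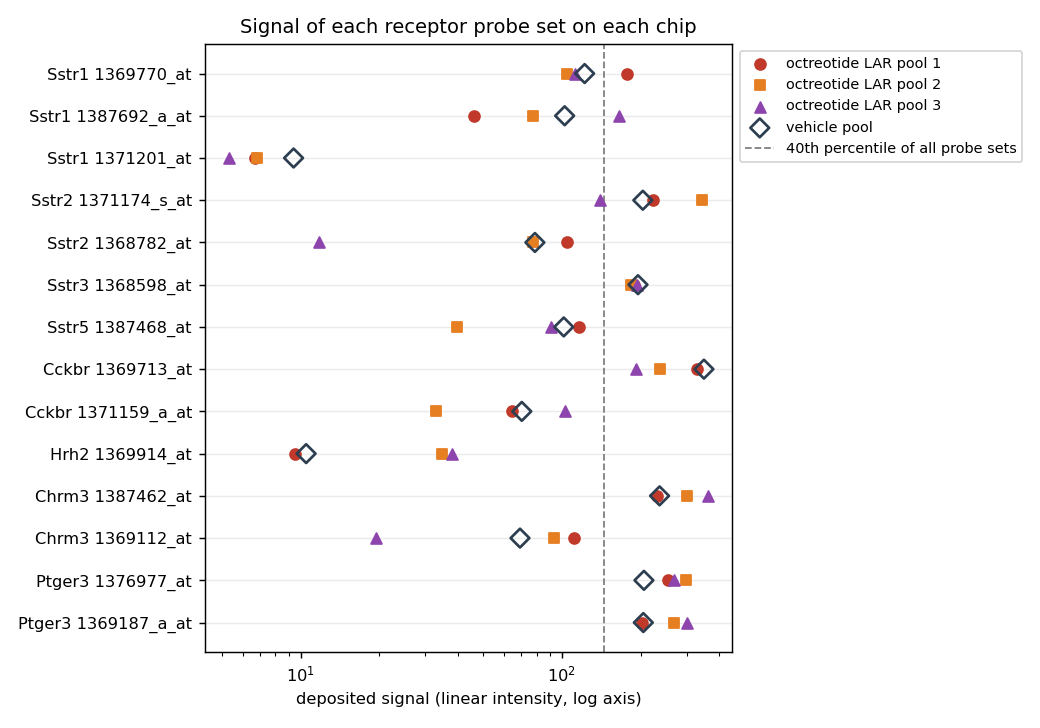
Deposited signal (horizontal log axis) of the 14 receptor probe sets on the 3 octreotide LAR chips (filled symbols) and the vehicle chip (open diamonds); the dashed line is the 40th percentile of all probe sets, a signal of 144.7. The 6 probe sets to the right of the line in the mean are those of Sstr2, Sstr3, Cckbr, Chrm3 and Ptger3, the last with 2, and on most rows the diamond lies among the treated symbols.

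Among the receptors that stimulate acid, the brighter Cckbr probe set (1369713_at) had the smallest p of the 14. Its signal was 329.3, 237.2 and 192.3 in octreotide LAR pools 1, 2 and 3, against 349.3 in the vehicle pool. All treated pools were below the vehicle pool, pool 1 only slightly. The mean was 252.9 ± 69.8 (SD, n = 3), or -0.47 relative to vehicle on the log2 scale (95% interval -1.31 to 0.37, limma unadjusted p = 0.23). In scraped tissue, fewer cells of a type and less RNA per cell cannot be told apart, which applies to every value here. The difference was -0.31 without pool 3. Cckbr is found on ECL and parietal cells. On pools 1, 2 and 3, Cckbr differed from vehicle by -0.08, -0.53 and -0.81 on the log2 scale. The median difference on the same pools was -1.27, -0.93 and -1.06 over the 5 ECL marker probe sets and 0.09, -0.12 and -0.16 over the 3 parietal ones. The parietal markers were not alike. Kcnq1 differed by -0.48, -0.96 and -0.31, Atp4b by 0.09, -0.12 and -0.16, and Atp4a by 0.12, -0.0007 and -0.16. The dimmer Cckbr probe set (1371159_a_at) had 64.3, 33.1 and 102.7 in the treated pools, against 70.2 in the vehicle pool. There the groups overlapped and pool 3, the lowest on the brighter probe set, was the highest. Its log2 difference was -0.15 (95% interval -1.62 to 1.31).

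Hrh2, the receptor through which histamine drives the parietal cell, was represented by a dim probe set (1369914_at). It had signals of 9.5, 34.7 and 38.0 in octreotide LAR pools 1, 2 and 3, against 10.5 in the vehicle pool. Pools 2 and 3 were above the vehicle pool and pool 1 was just below it. The log2 difference of 0.64 was the highest of the 14, but all signals lay far under the 40th percentile, the interval ran from -0.73 to 2.00, and the size depends on the pseudocount of 16: over all settings tried it ran from 0.28 to 1.09.

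Chrm3, the muscarinic receptor of parietal and smooth muscle cells, had a probe set above the 40th percentile (1387462_at) and one below it (1369112_at). The brighter had 231.7, 299.8 and 363.1 in octreotide LAR pools 1, 2 and 3, against 236.3 in the vehicle pool. Pool 1 was level with the vehicle pool and the other two were above it, for a mean of 298.2 ± 65.7 (SD, n = 3) and a log2 difference of 0.29 (95% interval -0.49 to 1.08, limma unadjusted p = 0.41). That difference was 0.46 without pool 1 and 0.15 without pool 3. The dimmer had 111.6, 93.3 and 19.5 in the treated pools, against 69.1 in the vehicle pool. It ordered the treated pools the opposite way, with pool 3 lowest. Its log2 difference was -0.11 (95% interval -1.93 to 1.72).

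Of the receptors that restrain acid, Ptger3, the prostaglandin E2 receptor that opposes histamine-driven cAMP in the parietal cell, was the gene whose probe sets were both higher in the mean. The first (1376977_at) had 254.4, 298.3 and 269.5 in octreotide LAR pools 1, 2 and 3, against 205.9 in the vehicle pool. It was the 1 receptor probe set with every treated pool above the vehicle pool. Its mean of 274.1 ± 22.3 (SD, n = 3) gave a log2 difference of 0.38 (95% interval -0.32 to 1.09, limma unadjusted p = 0.24). The second (1369187_a_at) had 202.8, 268.2 and 300.7 in the treated pools, against 204.8 in the vehicle pool. Its pool 1 was level with the vehicle pool, and the log2 difference was 0.29 (95% interval -0.52 to 1.10). Over both probe sets, 5 of 6 treated values were above vehicle. Both intervals held 0. Leaving out 1 pool moved the difference of the second to 0.44 without pool 1 and to 0.18 without pool 3.

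Sstr2, the main octreotide receptor and the somatostatin receptor of the ECL cell, varied more between treated pools than the treated mean differed from vehicle. Its brighter probe set (1371174_s_at) had 222.7, 342.8 and 139.4 in octreotide LAR pools 1, 2 and 3, against 203.9 in the vehicle pool. The vehicle value lay inside the treated range, which spanned 2.46-fold. The suffix "_s" in Affymetrix names marks probes that match more than 1 transcript. The log2 difference was 0.11 (95% interval -1.03 to 1.24, limma unadjusted p = 0.83). The dimmer probe set (1368782_at) had 104.5, 77.7 and 11.8 in the treated pools, against 78.8 in the vehicle pool. Pool 3 was the lowest on both probe sets, whereas the highest was pool 2 on the brighter and pool 1 on the dimmer. The dimmer gave a log2 difference of -0.48 (95% interval -2.45 to 1.49).

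Sstr3, a somatostatin receptor best known from neuronal cilia, was the steadiest. It had 188.6, 183.8 and 193.3 in octreotide LAR pools 1, 2 and 3, against 195.4 in the vehicle pool (1368598_at). All treated pools were below the vehicle pool, by at most 0.08 on the log2 scale. The mean was 188.6 ± 4.75 (SD, n = 3) and the log2 difference -0.05 (95% interval -0.87 to 0.77). It was the 1 receptor probe set whose interval held neither a doubling nor a halving of the vehicle signal.

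Sstr5, a second receptor with high affinity for octreotide, lay under the 40th percentile. It had 116.0, 39.7 and 90.9 in octreotide LAR pools 1, 2 and 3, against 101.6 in the vehicle pool (1387468_at). Pool 2 stood below the others, and the vehicle value lay inside the treated range. The log2 difference was -0.35 (95% interval -1.80 to 1.10).

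Sstr1, a somatostatin receptor that binds octreotide weakly, had 3 probe sets, all under the 40th percentile in the mean. The first (1369770_at) had 177.6, 104.3 and 112.2 in octreotide LAR pools 1, 2 and 3, against 122.1 in the vehicle pool. The second (1387692_a_at) had 46.0, 77.5 and 165.1 in the treated pools, against 102.4 in the vehicle pool. Pool 1 was the highest on the first and the lowest on the second. The third (1371201_at) had 6.7, 6.8 and 5.3 in the treated pools, against 9.4 in the vehicle pool, all near the bottom of the scale. Their log2 differences were 0.06, -0.22 and -0.19.

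**Figure D2:**
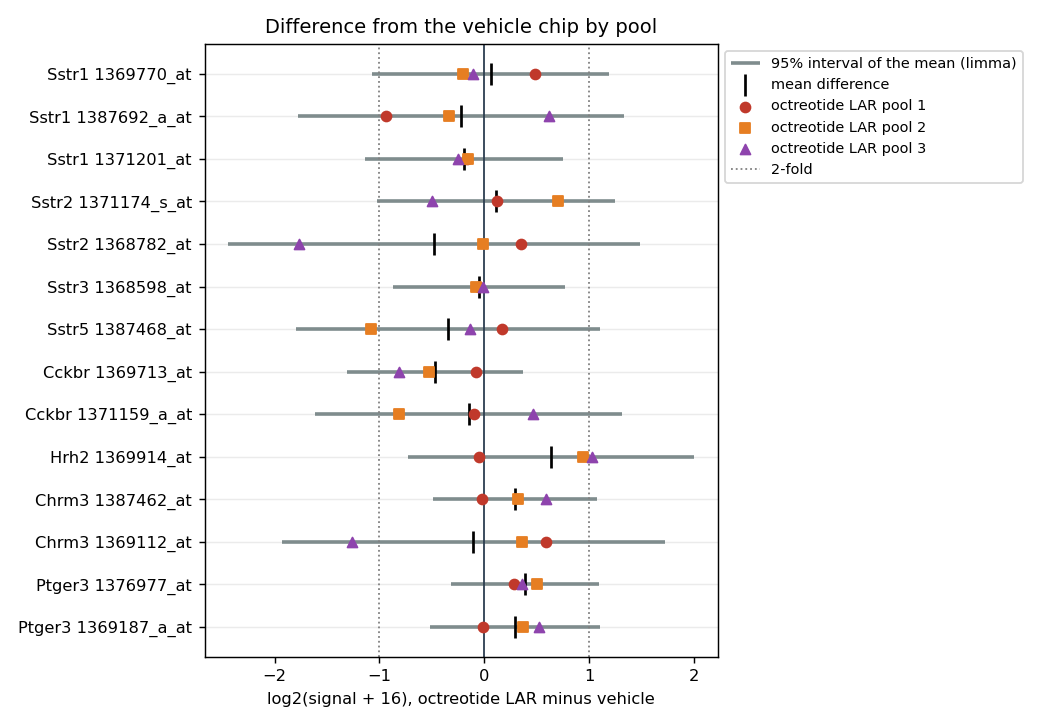
Difference of each octreotide LAR pool from the vehicle chip on the log2(signal + 16) scale (horizontal axis) for the 14 receptor probe sets, with the mean as a tick and its 95% limma interval as a bar; dotted lines mark a 2-fold change on this scale. Every bar crosses 0, and that of Sstr3 alone stays within the dotted lines.

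Every one of the 14 intervals held 0, and 13 of them also reached a doubling or a halving of the vehicle signal, each placed on the log2(signal + 16) scale. The half-width ran from 0.71 to 1.14 for the 6 probe sets above the 40th percentile and from 0.94 to 1.97 for the 8 below it. A halving of the signal lay outside the interval of 4 probe sets, which were Sstr3, the brighter Chrm3 and both of Ptger3. A doubling lay outside that of 2, which were Sstr3 and the brighter Cckbr. For the other probe sets the interval still held a change of that size. At the vehicle signal of Hrh2, 10.5, a doubling amounts to 0.48 on this scale and a halving to -0.32, and its interval held both.

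Probe sets of the same gene often disagreed. All probe sets of a gene fell to one side of the vehicle value in 2 of 3 pools for Sstr2, Cckbr and Ptger3, and in 1 of 3 pools for Chrm3 and Sstr1. The spread between treated pools was above the value fitted for that signal level in 9 of 14 receptor probe sets (64.3%), against 43.6% of all probe sets. The dimmer Sstr2 and Chrm3 probe sets had log2 SDs of 1.13 and 1.01, where the trend gave 0.51 and 0.50, and pool 3 was the low one on both. The brighter Sstr2 probe set had an SD of 0.60 against a fitted 0.33. The SDs of Sstr3 and of Ptger3 1376977_at were 0.03 and 0.11, against fitted values of 0.35 and 0.30.

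**Figure D3:**
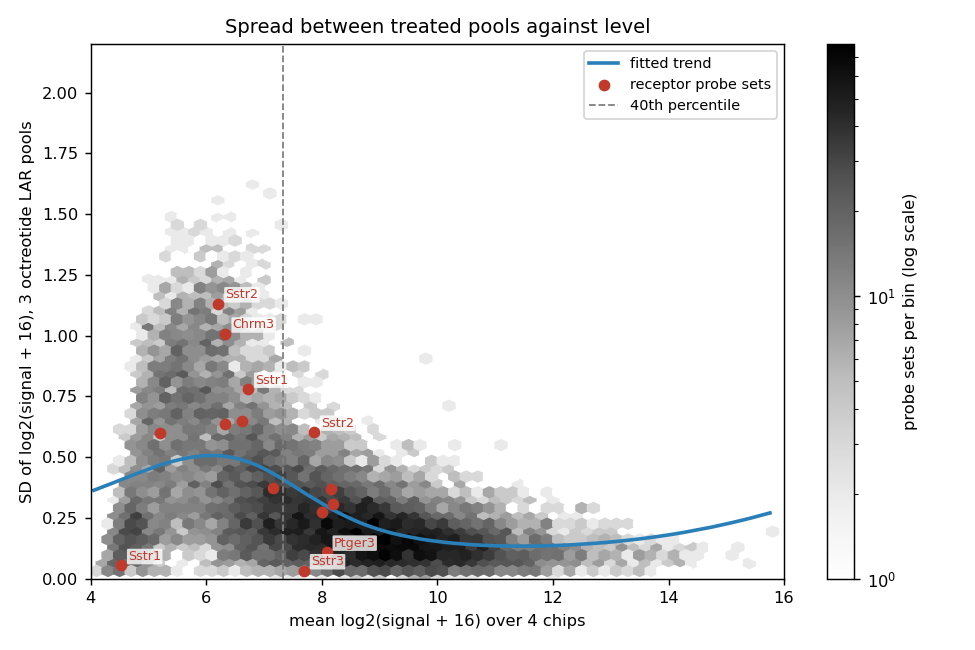
SD of log2(signal + 16) over the 3 octreotide LAR pools (vertical axis) against the mean over all 4 chips (horizontal axis) for all 15866 probe sets (grey bins), with the fitted trend (blue) and the receptor probe sets (red; those more than 1.5 times above the trend or under 0.5 times it are named). The dimmer Sstr2 and Chrm3 probe sets lie well above the trend, and Sstr3 lies near 0.

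The genes around the receptors were read from 8 lists. In the limma test over all probe sets none of their probe sets was called, so the counts given are those at an unadjusted p under 0.05, to be set against 4.89% of all probe sets. Ligands and the enzymes that make them had 3 of 17 probe sets at that level, 2 lower and 1 higher. Hdc had 1075, 1323 and 1122 in octreotide LAR pools 1, 2 and 3, against 3537 in the vehicle pool (limma adjusted p = 0.095 with all probe sets and 0.0027 with dim ones left out). Slc18a2, which loads histamine into ECL vesicles, had 918.7, 1168 and 945.5 in the treated pools, against 2237 in the vehicle pool on its brighter probe set (limma adjusted p = 0.56). Sst, which encodes the natural ligand of the somatostatin receptors, had 3555, 3959 and 4194 in the treated pools, against 3909 in the vehicle pool. Gast, which encodes gastrin, had 1161, 611.1 and 696.7 in the treated pools, against 664.9 in the vehicle pool. The vehicle value of both lay inside the treated range. Hdc was called lower when dim probe sets were left out, and no receptor was called in that fit or with all probe sets.

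The other members of the same receptor families, Sstr4, Hrh1, Hrh3, Hrh4, Chrm1, Chrm2, Chrm4, Chrm5, Ptger1, Ptger2 and Ptger4, had 14 probe sets, all under the 40th percentile, and 0 of them had an unadjusted limma p under 0.05. Of these, 10 were higher and 4 lower in the mean, with a median of 0.28 on the log2 scale, against -0.01 over all probe sets. The treated pools all lay above the vehicle chip for 6 of the 14, against 24.4% of all probe sets, and all below it for 1, against 24.0%. Whether the list differs from all probe sets was not tested. The smallest p was that of Ptger2, a prostaglandin E2 receptor that raises cAMP, with 21.2, 32.7 and 11.5 in octreotide LAR pools, against 62.9 in the vehicle pool (limma unadjusted p = 0.079). Among other peptide and amine receptors, 1 of 30 probe sets reached that level, that of Galr2. This galanin receptor had 80.3, 83.1 and 119.1 in the treated pools, against 244.1 in the vehicle pool (limma unadjusted p = 0.029, adjusted p = 0.98).

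Downstream of the receptors, 2 of 33 probe sets of Gs and cAMP coupling, 1 of 20 of Gq and calcium coupling, 2 of 27 of Gi coupling, 1 of 24 of receptor desensitisation and 1 of 18 of the acid-secreting end reached an unadjusted limma p under 0.05. The medians of these lists lay between -0.09 and 0.03 on the log2 scale, against -0.01 over all probe sets. In the Gs and cAMP list the treated pools all lay above the vehicle chip for 11 of 33 probe sets, against 24.4% of all probe sets. They all lay below it for 3, against 24.0%, and the list medians in pools 1, 2 and 3 were 0.17, 0.12 and 0.20. In the other lists of this paragraph more probe sets lay below the vehicle chip on every treated chip than above it. Whether any list differs from all probe sets was not tested. Pde4b, a phosphodiesterase that breaks down cAMP, had 309.6, 224.6 and 229.5 in octreotide LAR pools 1, 2 and 3, against 104.6 in the vehicle pool (limma unadjusted p = 0.015, adjusted p = 0.95). A dimmer Pde4b probe set had 43.0, 71.7 and 63.5 in the treated pools, against 41.9 in the vehicle pool. Rgs10, a regulator that speeds the switching off of G proteins, had 680.0, 676.9 and 580.7 in the treated pools, against 427.7 in the vehicle pool (limma unadjusted p = 0.023, adjusted p = 0.98). Kcnq1, the potassium channel that recycles potassium for the proton pump, had 2037, 1460 and 2304 in the treated pools, against 2855 in the vehicle pool (limma unadjusted p = 0.045).

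**Figure D4:**
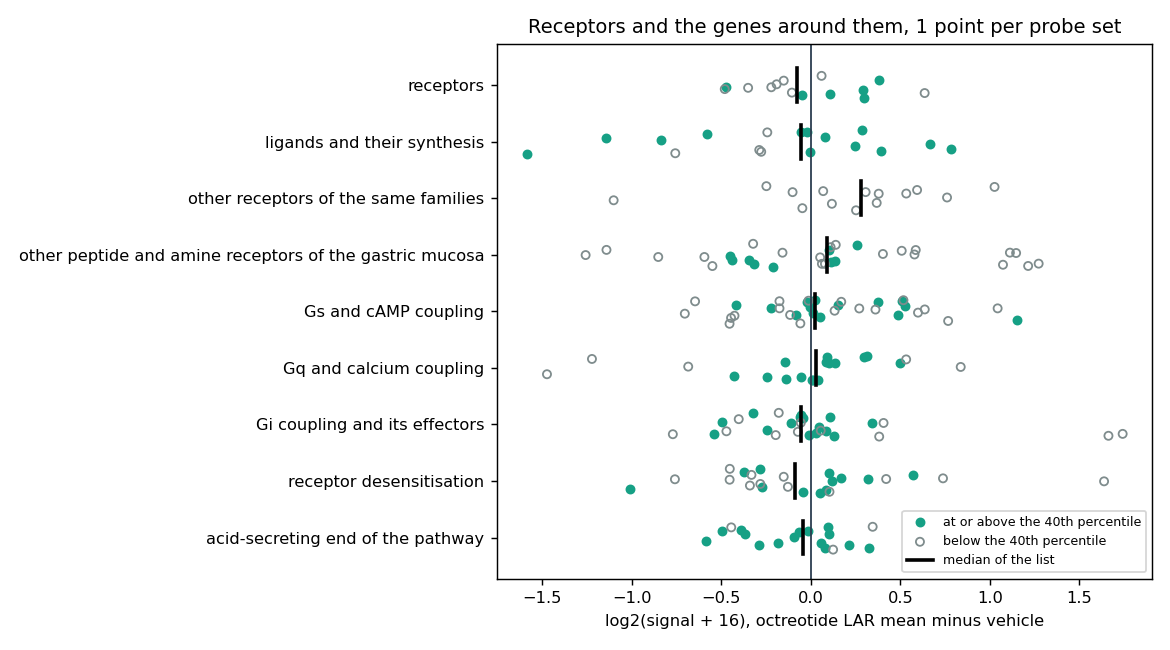
Mean octreotide LAR minus vehicle difference on the log2(signal + 16) scale (horizontal axis), 1 point per probe set, for the receptors and the 8 lists around them, filled where the probe set is at or above the 40th percentile; vertical bars are list medians. The receptors lie between -0.48 and 0.64, and the lowest point of the ligand list, at -1.59, is Hdc.

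The probe sets whose pool-by-pool differences from vehicle were nearest to those of the 6 receptor probe sets above the 40th percentile were sought among 8078 others at or above the 40th percentile that name 1 gene, by root mean square distance over 3 pools. Since all 4 chips enter each distance and the vehicle chip is shared, this is a description. The nearest to the brighter Cckbr probe set were Tmed2, at a distance of 0.042 on the log2 scale, and Xpr1, at 0.073, and 69 probe sets lay within 0.2. For the brighter Sstr2 probe set they were Ykt6, at 0.081, and Crlf3, at 0.10, with 20 within 0.2. For the brighter Chrm3 probe set they were Dennd4c and Tes, at 0.033 and 0.039, with 310 within 0.2. Dennd4c was also the nearest to Ptger3 1369187_a_at, at 0.024, followed by Ino80e at 0.031. For Ptger3 1376977_at they were Slc6a9 and Atp2b1, at 0.015 and 0.023, with 660 within 0.2. Sstr3, which hardly varied, had 2737 probe sets within 0.2, the nearest being Tbc1d22al and Kdelr3.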

How the data were processed

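Extraction of total RNA used a Qiagen kit, and biotin cRNA was hybridised to Affymetrix RAE230A chips, per the labels' protocols. The authors deposited a linear intensity for each probe set on each chip. How it was computed or scaled is not given in the sources used here. The 2%-trimmed mean was 496.8 to 497.2 on all chips. All chips share a chip lot and wash protocol, per the file headers, and each has its own fluidics module.

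Signals were taken as log2(signal + 16), with no further normalization. The two-sided test was that of limma (version 3.58.1, R version 4.3.3), with lmFit and eBayes(trend = TRUE) and Benjamini-Hochberg adjustment over all 15866 probe sets at 0.05. Residual degrees of freedom were 2, with 5.45 prior ones. The vehicle value is a single measurement, and the number of chips limits the precision. Treated chips hold RNA of different animals, per the labels. Gene names come from the platform annotation and were brought up to date by Entrez ID (12748 of 12783 single-gene probe sets matched). Dim probe sets were kept because most receptor probe sets are dim; detection calls were not used here. In 20 simulated data sets with 200 changes among 15866 probe sets, 9.2% of changes of 1 and 52.2% of changes of 2 on the log2 scale were recovered. These shares were not worked out separately at the signal levels of the receptors. Every receptor probe set is named. From each list, names come from the 2 probe sets with the smallest p; Sst and Gast were named as ligands after their values were seen. The receptors and lists were chosen with earlier results of these data known. The filter on dim probe sets, an alternative, acts on the mean of log2 values; a filter on the arithmetic mean signal was run first and is given as an added alternative. Other alternatives changed the pseudocount, the scaling, the trend and the set of treated chips.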

Additional observations from a re-analysis of the deposited data

How the results depend on the processing

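The count of calls among the 14 receptor probe sets was 0 with all chips and under each of 11 alternatives, and none had an unadjusted limma p under 0.05 in any of them; the lowest adjusted p was 0.89. Over all probe sets the count of limma calls was 0, and it was 4 with a pseudocount of 1, 10 of 9520 with dim probe sets left out by the mean of log2 values and 8 with them left out by the arithmetic mean. Both filters were run, and the choice of the log2 one as the planned filter was made after seeing the data. In the ligand list, 1 probe set, that of Hdc, was called under each of these 3 settings. The filters change both the number of probe sets tested and the fitted spread, with prior degrees of freedom of 5.45 with all probe sets and 11.5 under the log2 filter; the cause was not tested. Over all probe sets, 0 were called whichever treated pool was left out, with 655 to 973 at an unadjusted limma p under 0.05. Of 138 alternative values for single receptor probe sets, 131 kept their direction and 7 reversed, all on leaving out a treated pool. The trend settings and the filters on dim probe sets change only the fitted spread, so the differences under them could not reverse. The count of kept directions is therefore no measure of their stability. As each pool was left out in turn, the log2 difference ran from -0.15 (without pool 1) to 0.19 for Sstr1 1369770_at and from -0.64 to 0.14 (without pool 1) for Sstr1 1387692_a_at. It ran from -0.19 (without pool 2) to 0.41 for Sstr2 1371174_s_at and from -0.89 to 0.16 (without pool 3) for Sstr2 1368782_at. For Sstr5 it ran from -0.61 to 0.015 (without pool 2), for Cckbr 1371159_a_at from -0.46 to 0.18 (without pool 2) and for Chrm3 1369112_at from -0.45 to 0.47 (without pool 3). The brighter Cckbr probe set ran from -0.67 to -0.31 over all settings, and Ptger3 1376977_at from 0.32 to 0.43. The other Ptger3 probe set ran from 0.18 to 0.44 and the brighter Chrm3 probe set from 0.15 to 0.46. Hrh2 ran from 0.44 to 0.98 as each pool was left out. No paired analysis was possible, since a single vehicle pool was set against 3 treated pools. The vehicle group is 1 chip, so a peculiarity of that pool and an effect of treatment cannot be told apart. Most receptor signals lie where the spread between chips is largest, which limits what these chips can show.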

Other observations

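Several genes that couple the receptors to their effectors had probe sets whose differences from vehicle were unequal in size or, for Ptpn11 and Gnaz, opposite in direction in the mean. Ptpn11, a phosphatase that relays somatostatin receptor signals, had 29.4, 111.2 and 78.0 in octreotide LAR pools 1, 2 and 3, against 8.4 in the vehicle pool on a dim probe set (limma unadjusted p = 0.035). Its bright probe set had 1599, 1489 and 1612 in the treated pools, against 1616 in the vehicle pool. Gnaz, an inhibitory G protein subunit, had 98.5, 104.4 and 35.0 in the treated pools, against 12.1 in the vehicle pool on one probe set (limma unadjusted p = 0.036). The other had 125.1, 194.6 and 124.5, against 185.7 in the vehicle pool. Prkcb, a protein kinase C, had 12.7, 13.9 and 11.6 in the treated pools, against 63.7 in the vehicle pool on its dim probe set (limma unadjusted p = 0.014). Its brighter probe set had 295.0, 321.1 and 289.3 in the treated pools, against 333.0 in the vehicle pool. Prkar1a, a regulatory subunit of protein kinase A, had 1853, 1958 and 2289 in the treated pools, against 1417 in the vehicle pool on one probe set (limma unadjusted p = 0.016). Its other probe sets differed from vehicle by 0.05 and 0.01 on the log2 scale. None of these passed after adjustment over all probe sets.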
